A study of Sus scrofa with 4 samples.

Results

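NR3C1, HSD11B1, STAR and CYP11A1 are 4 pig genes that stand at both ends of glucocorticoid action, the response to the hormone and the making of steroid. Every array probe whose RefSeq accession belongs to 1 of them was taken, which gave 18 of the 43597 probes kept and 4 of the 3020 genes that could be named. They were measured in thymus RNA of Minnesota miniature swine, in 2 samples labelled IL2RG+/- (KO here) and in 2 wildtype samples (WT here), each hybridised to 1 single-colour porcine array of Agilent. KO pigs carried a TALEN-made mutation in 1 allele of IL2RG, the gene of the cytokine receptor gamma chain, and were cloned by nuclear transfer from edited cells. Most KO pigs had no thymus, and the study took the KO thymus RNA from the 2 animals with a rudimentary one, so KO stands here for those animals alone. No treatment is named for either genotype, and the ages of the pigs used for the arrays are not given in the sources used here. The labels do not tie the WT arrays to animals, so that p-values measure only the spread between these samples, part of which may be technical.

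Glucocorticoids enter cells and bind the receptor encoded by NR3C1, which is held ready in the cytoplasm by chaperones and then moves to the nucleus, where it switches genes on and off. HSD11B1 regenerates active cortisol from inactive cortisone inside cells and so raises the hormone the receptor sees, whereas its counterpart HSD11B2 inactivates cortisol. STAR carries cholesterol to the inner mitochondrial membrane and CYP11A1, the side-chain cleavage enzyme, turns it into pregnenolone, the first step of all steroid synthesis, mainly in the adrenal cortex and gonads. The thymus is known for its sensitivity to glucocorticoids, since immature thymocytes die when exposed to them.

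IL2RG itself was low in both KO samples. Its brighter probe gave normalized log2 signals of -3.15 and -3.29 in KO and -0.13 and 0.52 in WT, which is a difference of -3.41 (SE 0.27, limma adjusted p = 0.00256). All values are log2 signals relative to the 75th percentile of the array, and KO minus WT is a log2 difference of these. Each slide held 1 array per genotype, slide 1 the KO replicate 1 with the WT replicate 2, slide 2 the other pair. Markers of thymocytes, the developing T cells, checked the tissue: each of the 15 with a named probe was detected in WT, and each was called lower in KO. Their summed normalized signal was 46.6 and 44.7 in KO against 325 and 438 in WT. In bulk RNA, fewer cells of a type and less RNA per cell cannot be told apart.

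Of the 18 probes, 16 were tested, and a probe was called at a limma adjusted p under 0.05 and at least a 2-fold change. Over all 31963 probes tested 34.0% were called, 21.0% higher in KO and 13.0% lower. Of the 16, 3 STAR and 2 CYP11A1 probes entered the test through the KO arrays alone, where a probe low in WT is bound to stand out, so counts are given for the 11 detected (flagged well above background) on every array. Of these 11, 6 were called, all of them HSD11B1 probes and all higher in KO, where 30.1% of all probes detected on every array were called, 16.8% higher and 13.3% lower. The KO values lay above both WT values at the same 6 probes and below both at the other 5, where 33.4% and 44.7% of all probes detected on every array did so. The 3 to 6 probes of a gene measure the same RNA in the same 4 samples and are not replicates of each other.

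**Figure D1:**
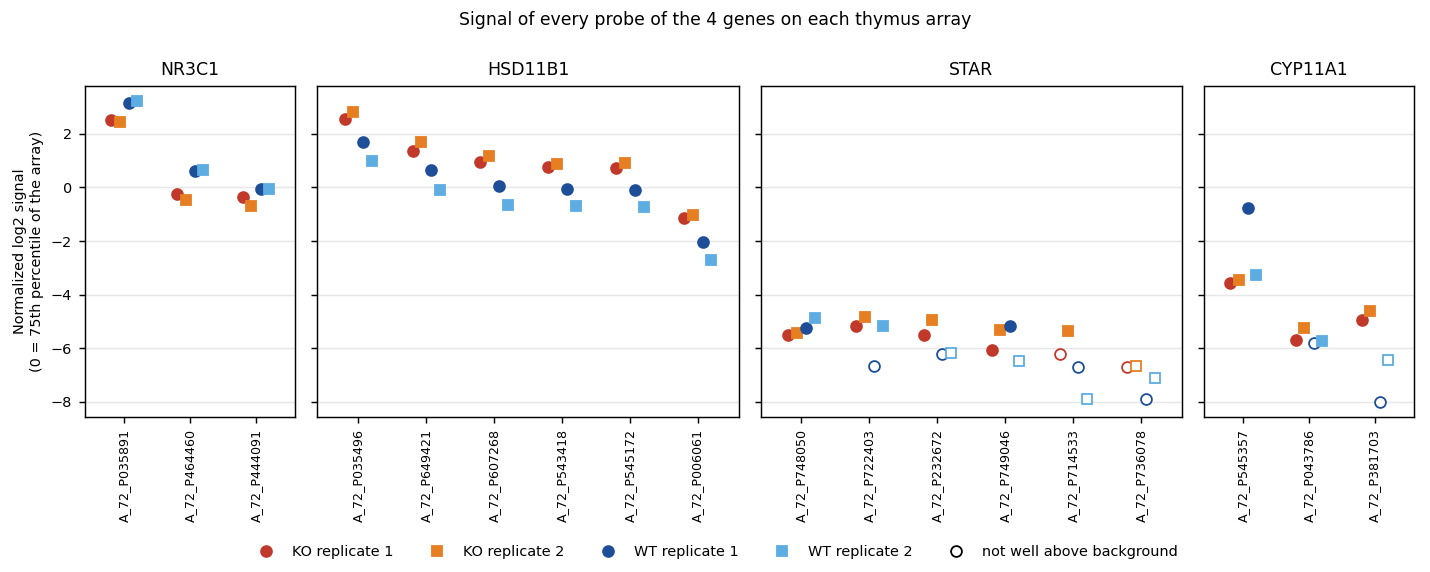
Normalized log2 signal (y axis, 0 is the 75th percentile of the array) of all 18 probes of NR3C1, HSD11B1, STAR and CYP11A1 on each of the 4 arrays, with open symbols for a signal that the scanner software did not flag as well above background. The 6 HSD11B1 probes show the same order of the 4 arrays, the 3 NR3C1 probes lie lower in KO, and most STAR signals lie near background. Heights are not comparable between probes.

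HSD11B1, the enzyme that regenerates cortisol, was higher in KO thymus at all 6 of its probes. At its brightest probe the normalized log2 signal was 2.54 and 2.82 in the KO samples and 1.70 and 0.97 in the WT samples. Both KO values were above both WT values, and the WT samples were further apart than the KO samples. KO averaged 2.68 ± 0.20 (SD, n = 2) and WT averaged 1.33 ± 0.52 (SD, n = 2), a log2 difference of 1.35 (SE 0.30) or 2.55-fold, with a limma adjusted p of 0.0247. On the linear scale before normalization the probe gave signals of 4443 and 4920 in KO and 2016 and 1360 in WT, far above the background on every array.

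The other 5 HSD11B1 probes repeated this pattern. Over the 6 probes the log2 difference ranged from 1.20 to 1.35, or 2.30- to 2.55-fold, with adjusted p from 0.0208 to 0.0327. WT replicate 1 lay above WT replicate 2 at all 6 probes, by 0.62 to 0.74, whereas KO replicate 2 lay above KO replicate 1 by 0.10 to 0.33. Within slide 1 the difference between KO and WT was 1.45 to 1.57 over the probes, and within slide 2 it was 0.95 to 1.12. HSD11B1 was thus higher in KO on both slides, by more on the slide that carried the lower WT sample.

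The calls at HSD11B1 depended on which arrays were kept. Without KO replicate 1 none of the 6 probes was called (adjusted p from 0.0767 to 0.0963), nor was any without KO replicate 2 (0.112 to 0.156). Without WT replicate 1 all 6 were called, with differences of 1.53 to 1.71, and without WT replicate 2, the lower WT sample, 1 was called, with differences of 0.88 to 1.01. The direction was the same in each case. The methods' t-test called none of the 6, with an unadjusted p from 0.0607 to 0.0921.

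Cell type markers moved along with HSD11B1. HSD11B1 is known to be active in fat, fibroblasts and macrophages, and the fibroblast markers had a summed signal of 132 and 194 in KO and 63.8 and 28.2 in WT. Of the 5 fibroblast markers tested, 4 were called higher, where 25.1% of all named genes tested were. For macrophage markers the sums were 230 and 292 in KO and 60.1 and 51.0 in WT, with 9 of 10 called higher. For adipocyte markers they were 55.0 and 157 in KO and 38.4 and 25.9 in WT, with 4 of 10 called higher. PLIN1, 1 of these 4, entered the test through the KO arrays alone. RETN alone among the adipocyte markers had a negative difference, at -1.96, and was not called. The fibroblast, macrophage and adipocyte sums were higher in WT replicate 1 than in WT replicate 2. They were also higher in KO replicate 2 than in KO replicate 1, the order that HSD11B1 showed. The endothelial, adrenal cortex and B cell sums had that order too. A sum is weighted to its brightest genes, and not every single marker had that order. POSTN of the fibroblast list and CD163 and SIRPA of the macrophage list lacked it. Endothelial markers were called higher in KO at 5 of 6 genes and thymic epithelial markers at 2 of 4. The part of any cell type in the HSD11B1 result was not tested.

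**Figure D2:**
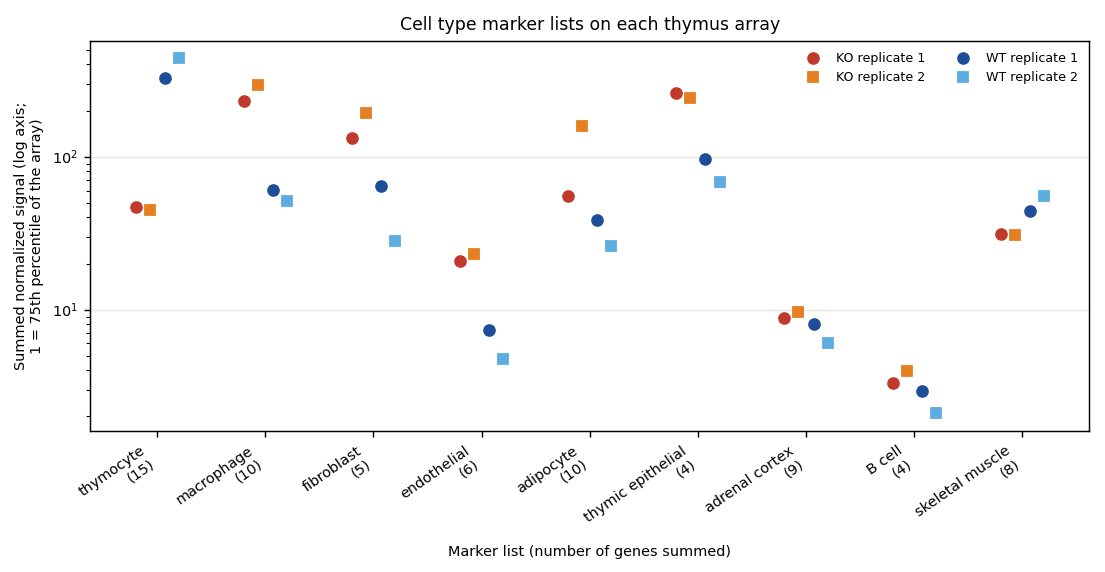
Summed normalized signal (log y axis, 1 is the 75th percentile of the array) of the marker genes of each cell type on each of the 4 arrays, 1 value per gene from its brightest probe. Thymocyte markers lie lower in KO, at 46.6 and 44.7 against 325 and 438, while macrophage, fibroblast, endothelial, adipocyte and thymic epithelial markers lie higher. The adrenal cortex sums of 6.01 to 9.69 include STAR and CYP11A1 themselves and come mostly from FDX1.

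NR3C1, the receptor, was lower in KO at all 3 probes, and none of the 3 reached 2-fold. Its brightest probe gave 2.49 and 2.43 in KO and 3.13 and 3.22 in WT, with linear signals of 4293 and 3754 against 5428 and 6467. The groups did not overlap, and replicates were within 0.1 of each other in both genotypes at this probe. The log2 difference was -0.71 (SE 0.15), which is 1.64-fold lower, with a limma adjusted p of 0.0222. It was -0.73 within slide 1 and -0.70 within slide 2.

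The remaining NR3C1 probes gave differences on either side of that value. Probe A_72_P464460 read -0.25 and -0.46 in KO and 0.62 and 0.66 in WT, which is a difference of -0.99 (SE 0.17, limma adjusted p = 0.0114) that stays just under 2-fold. It was called with quantile normalization at -1.0, with median scaling at -1.25, with the deposited log2 values at -1.01 and without WT replicate 1 at -1.02. Probe A_72_P444091 read -0.35 and -0.68 in KO and -0.04 and -0.05 in WT, which is a difference of -0.47 (SE 0.19, limma adjusted p = 0.102). All 3 probes were lower in KO under each alternative that was run. No NR3C1 probe had an adjusted p under 0.05 without KO replicate 1 or without KO replicate 2, and with each of the 4 arrays left out in turn the brightest probe gave differences of -0.76 to -0.67. Among all probes tested, 48.1% had an adjusted p under 0.05 at any fold, and the median absolute log2 difference was 0.69, so that the difference of NR3C1 was of ordinary size in these arrays.

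**Figure D3:**
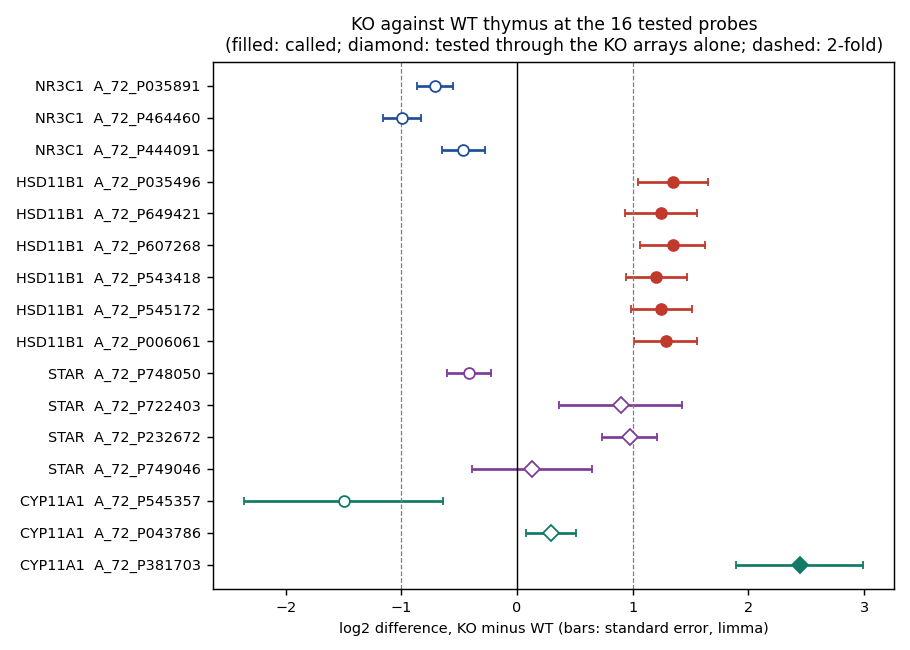
Log2 difference between KO and WT thymus (x axis) at the 16 tested probes, with the standard error from limma as bars, filled symbols where the probe was called, diamonds for the 5 probes tested through the KO arrays alone and dashed lines at 2-fold. The 6 HSD11B1 probes lie together between 1.20 and 1.35 and the 3 NR3C1 probes between -0.99 and -0.47, while the probes of STAR and of CYP11A1 lie on both sides of 0.

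CYP11A1, which makes pregnenolone from cholesterol, gave a different answer at each of its 3 probes. The brightest, A_72_P545357, read -3.55 and -3.46 in KO and -0.75 and -3.26 in WT. Only WT replicate 1 stood apart, with a linear signal of 368 against 64.9 and 63.1 in KO and 72.4 in WT replicate 2. The log2 difference of -1.50 (SE 0.86) did not pass the test, with a limma adjusted p of 0.214. It was -0.24 without WT replicate 1 and -2.75 without WT replicate 2 (limma adjusted p = 0.00261), so that 1 array decided its size. The lower signal in KO at this probe rested on WT replicate 1, and the WT samples differed from each other by 2.51.

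Probe A_72_P381703 of CYP11A1 went the other way. It read -4.94 and -4.61 in KO and -7.99 and -6.44 in WT, and it was not well above background in either WT sample. Its KO signal was at least 2.06-fold the dimmest signals well above background on the WT arrays, a bound that belongs to this scaling. The probe entered the test through the KO arrays alone, where a probe low in WT is bound to stand out. Its limma adjusted p of 0.0251 was set against WT values that were not well above background, and is no support for a change. With normexp, a background correction that draws dim signals together, the difference was 0.25 (adjusted p = 0.253), and the call was also lost with quantile normalization (adjusted p = 0.0595), without KO replicate 1 (0.0704) and without KO replicate 2 (0.0964). Probe A_72_P043786 read -5.70 and -5.25 in KO and -5.82 and -5.72 in WT, where WT replicate 1 was not well above background, which is a difference of 0.29 (SE 0.21, limma adjusted p = 0.314). The 3 probes carry the same accession, and no direction for CYP11A1 can be read from them together.

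STAR, the cholesterol carrier, was close to background on every array. Of its 6 probes, 1 was well above background on all 4 arrays and 1 on none, and 4 were tested. The probe seen on all arrays gave linear signals of 16.8 and 16.1 in KO and 16.5 and 23.6 in WT. On the normalized scale these were -5.50 and -5.43 against -5.23 and -4.88, a difference of -0.42 (SE 0.19, limma adjusted p = 0.141). The dimmest probes counted as well above background on these arrays had signals of 9.27 to 11.8, so that STAR lay a small step above the limit of the measurement.

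The other STAR probes did not share a direction of the same size. Probe A_72_P232672 was well above background in KO alone, with linear signals of 17.0 and 22.8 in KO and 8.40 and 9.74 in WT. Its KO signal was at least 1.52-fold the dimmest signals well above background on the WT arrays, again a bound of this scaling. The limma adjusted p of 0.0317 was likewise set against WT values not well above background, and the probe was not called. With normexp its difference was 0.041 (adjusted p = 0.871). Probe A_72_P722403 differed by 0.90 (SE 0.53, adjusted p = 0.228) and probe A_72_P749046 by 0.13 (SE 0.52, adjusted p = 0.854), with overlapping groups at both and with 1 WT array not well above background at each. The difference at A_72_P722403 was 0.15 without WT replicate 1 and 1.64 without WT replicate 2 (adjusted p = 0.00814), where it was called. The 2 probes that were not tested, A_72_P714533 and A_72_P736078, read up to 17.1 and 7.29 on the linear scale. On all 4 arrays no STAR probe was called, and signals this near to background limit the change that could be detected.

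Markers of the adrenal cortex, the main site of steroid synthesis, showed no called difference. Of the 9 with a named probe, 5 were tested by limma and 0 were called or had an unadjusted p under 0.05, with a median difference of -0.16. The 5 include STAR and CYP11A1 at their brightest probes, so the count in part restates the values given above. Among all named genes tested, 37.8% were called. FDX1, a ferredoxin used in many tissues, gave most of their summed signal. CYP17A1, the enzyme that leads to cortisol and androgens, was well above background on no array, nor were NR5A1, the factor that drives steroid-making genes, and NR0B1, its repressor. HSD3B1, the enzyme after CYP11A1, differed by -0.16 and was not called.

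Few of the genes that supply the hormone and hold the receptor were called. Of 27 listed, 13 were tested, and 1 was called higher and none lower, or 7.69%, where 37.8% of the 2700 named genes tested were called. The median difference was 0.15, against -0.00 over the named genes. The gene called was HSD11B2, which inactivates cortisol and so opposes HSD11B1. It read -2.08 and -2.58 in the KO samples against -4.43 and -4.63 in the WT samples, a difference of 2.20 (SE 0.23, limma adjusted p = 0.0043). HSD11B1 and HSD11B2 were thus both higher in KO. HSD11B2, read by 1 probe, had linear signals of 180 and 116 in KO and 28.8 and 28.0 in WT. Signals are not comparable between probes, so these values do not rank HSD11B2 against HSD11B1. With each array left out in turn, the difference of HSD11B2 was 1.95 to 2.45.

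None of the receptor chaperones tested was called. HSP90AA1, a chaperone that keeps the receptor able to bind hormone, differed by -0.10 (SE 0.15, limma adjusted p = 0.626). HSP90AB1, its constitutive form, read 7.51 and 7.57 in KO and 8.08 and 8.05 in WT, which is a difference of -0.52 (SE 0.15, limma adjusted p = 0.0477) that was under 2-fold. FKBP4, which helps the receptor reach the nucleus, differed by 0.03 (SE 0.19, adjusted p = 0.925). The signs at HSP90AA1 and FKBP4 turned under another scaling, HSP90AA1 to 0.04 with quantile normalization and FKBP4 to -0.23 with median scaling.

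Few genes of steroid synthesis and cholesterol supply were called either. Of 55 listed, 33 had a named probe and 26 were tested, and 2 were called higher and none lower, or 7.69%, with a median difference of 0.24. At an adjusted p under 0.05 and any fold, 7 were higher and 3 lower, where 52.9% of the named genes reached that p. The count of 2 became 8 without WT replicate 1 and 1 among probes detected on every array. The genes that were called were AKR1C1, which belongs to a family of steroid-reducing enzymes with near-identical members, so that its probes may read more than 1 of them, and GATA6, a transcription factor of steroid-making and many other cells.

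AKR1C1 read -2.35 and -1.62 in KO and -4.95 and -5.93 in WT, where WT replicate 2 was not well above background. The difference was 3.46 (SE 0.44, limma adjusted p = 0.0061). This probe entered the test through the KO arrays alone, so that p is no support for a change. Of the 6 AKR1C1 probes 4 were tested and these 4 were called, but they read the same samples and are not replicates. GATA6 read -1.47 and -1.53 in KO and -3.99 and -5.13 in WT, which is a difference of 3.06 (SE 0.41, limma adjusted p = 0.007). The groups did not overlap at either gene.

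The partners that work directly with STAR and CYP11A1 did not move together. FDXR, the reductase that feeds electrons towards CYP11A1, read 1.55 and 1.52 in KO and 2.37 and 2.58 in WT, which is a difference of -0.94 (SE 0.17, limma adjusted p = 0.0132) that was under 2-fold. FDX1, the ferredoxin between FDXR and CYP11A1, differed by 0.47 (SE 0.19, adjusted p = 0.110). TSPO, a protein of the outer mitochondrial membrane long linked to cholesterol import, read 5.30 and 5.66 in KO and 4.89 and 3.88 in WT. Its difference of 1.09 (SE 0.39, limma adjusted p = 0.0802) did not pass the test, and it was 1.59 (adjusted p = 0.00769) without WT replicate 1 and 0.58 (adjusted p = 0.103) without WT replicate 2. STARD3, a cholesterol carrier of late endosomes related to STAR, differed by -0.04 (SE 0.15, adjusted p = 0.855).

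**Figure D4:**
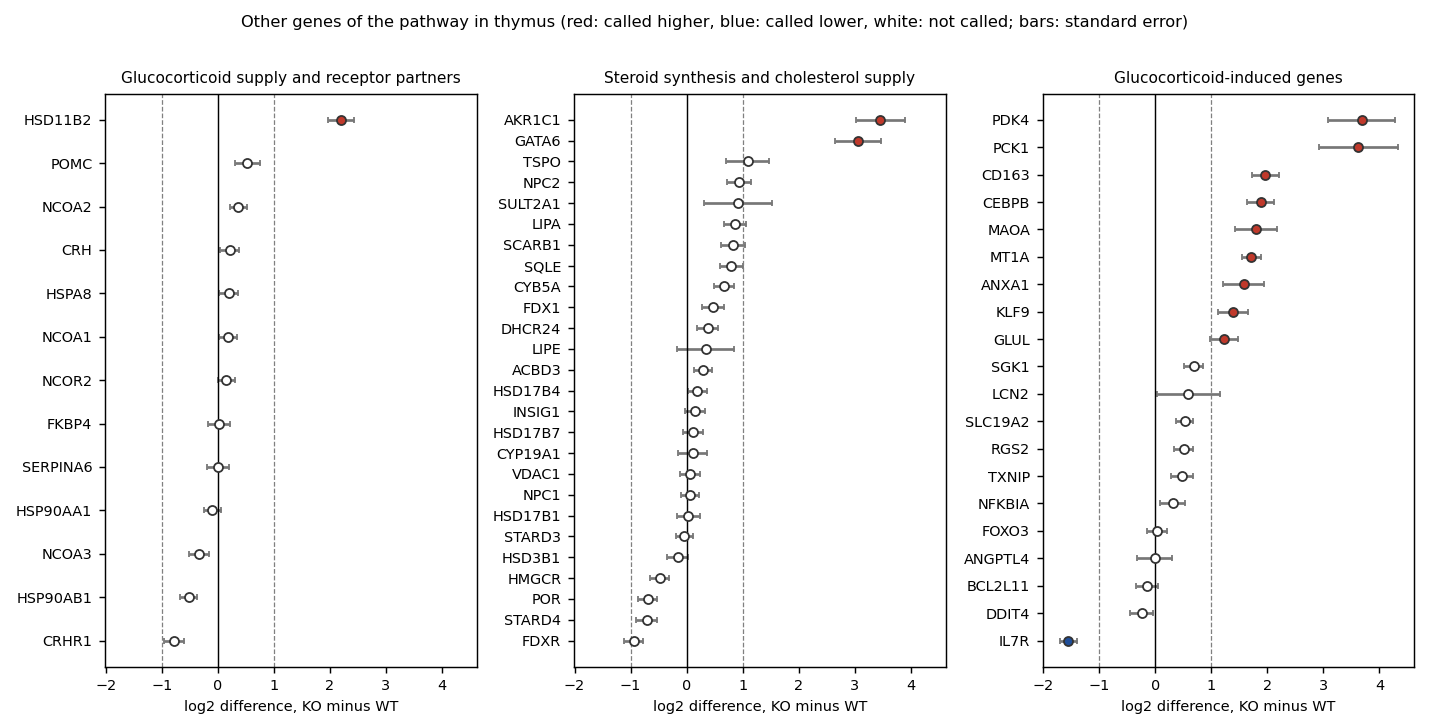
Log2 difference between KO and WT thymus (x axis) of each tested gene in 3 lists of the pathway, 1 value per gene from its brightest probe, with standard errors from limma, red for genes called higher, blue for genes called lower and dashed lines at 2-fold. In the list of glucocorticoid-induced genes 9 of 20 were called higher and 1 lower, against 1 of 13 and 2 of 26 in the others. Of the genes called higher, KLF9 and AKR1C1 entered the test through the KO arrays alone. Among all named genes tested, 25.1% were called higher and 12.6% lower.

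Genes that glucocorticoids are known to induce in various tissues were called in both directions. Of 40 listed, 21 had a named probe and 20 were tested, and 9 were called higher and 1 lower. KLF9, 1 of the 9, entered the test through the KO arrays alone. Among all named genes tested, 37.8% were called, 25.1% higher and 12.6% lower. The median difference was 0.63. Targets commonly used as a readout of the receptor, FKBP5, TSC22D3, PER1, DUSP1 and ZBTB16, had no named probe here.

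PDK4, which restrains glucose oxidation in mitochondria, read 2.08 and 2.13 in KO and -2.44 and -0.72 in WT, and PCK1, an enzyme of gluconeogenesis that is also high in fat, read 0.37 and 2.35 in KO and -2.0 and -2.52 in WT. The differences were 3.69 (SE 0.60, limma adjusted p = 0.0109) and 3.62 (SE 0.70, limma adjusted p = 0.017). PCK1 was higher in KO replicate 2 than in KO replicate 1 by more than the WT samples differed, and the adipocyte sum was 157 against 55.0 in these samples. CD163, a scavenger receptor that is itself in the macrophage list, differed by 1.96 (SE 0.24, limma adjusted p = 0.0059), with 4.53 and 5.10 in KO and 2.85 and 2.86 in WT. The part of fat or macrophages in these values was not tested.

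The smaller differences among the induced genes were between 1.22 and 1.88. They belonged to CEBPB, a transcription factor, at 1.88, to MAOA, which breaks down monoamines, at 1.80, to MT1A, a metallothionein whose close relatives its probe may also read, at 1.72, to ANXA1, an anti-inflammatory protein, at 1.58, to KLF9, a transcription factor, at 1.38 and to GLUL, glutamine synthetase, at 1.22. For KLF9, WT replicate 2 was not well above background, so its probe entered the test through the KO arrays alone. Its call is no support for a change, and with normexp its difference was 0.23 (limma adjusted p = 0.35). CEBPB was at 0.68 with normexp and GLUL at 0.96 with median scaling, both under 2-fold. SGK1, a kinase and an early target of the receptor, read 1.20 and 1.34 in KO and 0.70 and 0.48 in WT, which is a difference of 0.68 (SE 0.17, limma adjusted p = 0.034) that was under 2-fold.

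IL7R, the receptor of a survival cytokine for thymocytes, was the gene of this list that was called lower. It read -0.40 and -0.52 in KO and 1.09 and 1.1 in WT, which is a difference of -1.56 (SE 0.15, limma adjusted p = 0.0037). Thymocyte markers were lower in the same samples. Of the induced genes, 6 were called without KO replicate 1 and 6 without KO replicate 2. MAOA, ANXA1, KLF9 and GLUL lost their calls in both cases, and GLUL also without WT replicate 2, at 0.92.

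The named genes with the profile most like that of each of the 4 genes over the 4 arrays were looked up among the 2513 with a brightest probe well above background on all arrays. Likeness was the Euclidean distance between log2 profiles, each centred on its own mean. For NR3C1 they were SLIRP at 0.027, PRELID3B at 0.034 and BCKDHB at 0.042. For HSD11B1 they were SERINC2 at 0.070, EMP1 at 0.080 and OAS2 at 0.082, each of which also showed WT replicate 1 above WT replicate 2. For STAR they were DLAT at 0.041, NME1 at 0.042 and GALNS at 0.045. CYP11A1 had less close neighbours, PTI at 0.27, ALOX15 at 0.86 and LOC780435 at 0.94, and all 3 were highest in WT replicate 1. With 4 arrays, profiles this close are a description of these samples.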

How the data were processed

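Thymus RNA of 2 KO and 2 WT samples was measured on 4 arrays, grouped by the sample labels. The intensity values were deposited by the authors as output of Agilent's Feature Extraction 11.0.1.1, per the file headers: a processed signal per spot, background-subtracted and not normalized between arrays, with a flag for spots well above background and the probe names. The authors also deposited log2 values, which matched quantile normalized signals of 27970 probes (Pearson's r at least 0.9998 per array). The methods name Cy-3 and Cy-5 dyes and GeneSpring, whereas the labels and files hold Cy3 alone.

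Control and outlier spots were left out, spots of a probe were averaged, and log2 signals were set relative to the array's 75th percentile. A probe was tested where both KO or both WT arrays flagged it well above background, which 31963 did, with lmFit and eBayes of limma 3.58.1 in R 4.3.3, with Benjamini-Hochberg adjustment over all of them, and called at an adjusted p under 0.05 and 2-fold. Between 67.9% and 74.6% of probes were well above background per array, and no spot was saturated. The number of arrays limits the precision: the smallest two-sided exact permutation p for 2 against 2 arrays is 0.333. A bound of at least N-fold takes, on each array of the dim genotype, the dimmest signal flagged well above background or that of the probe itself, whichever is higher. The procedure was tested on simulated data.

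A RefSeq accession came with 7108 probes, of which 6684 were named through the RefSeq table of Sscrofa11.1, used for names alone. A gene is represented by its brightest probe. All probes of the 4 genes are described. In the 3 lists of the pathway, genes are named that had the largest differences among those called, up to 12 per list, or that act directly on the 4 genes, and HSD3B1, CYP17A1, NR5A1 and NR0B1 are named as adrenal cortex markers. For each of the 4 genes the 3 named genes closest in profile are given. Members and lists were chosen with earlier results of these data known. The alternatives were quantile normalization, median scaling, normexp with an offset of 50 on the median spot intensity, the deposited log2 values, 2 other filters on dim probes, a block for slide or for replicate number, an intensity trend, the methods' t-test with 3 ways of adjustment, and each array left out. Spleen arrays were not analysed here. Probe sequences and positions are not given.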

Additional observations from a re-analysis of the deposited data

How the results depend on the processing

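The directions of NR3C1, HSD11B1 and the brightest probes of STAR and CYP11A1 were the same under every alternative run. HSD11B1 ranged from 0.98 to 1.71 with each array left out, and lost its call without either KO array and without WT replicate 2. With the methods' t-test its difference of 1.35 had a p of 0.0748 unadjusted, 0.146 after Benjamini-Hochberg and 1 after Bonferroni. CYP11A1 ranged from -2.75 to -0.24 with each array left out. Of the 16 probes, 0 were called with the methods' t-test under any of its 3 adjustments, and 0 to 8 with each array left out, where limma called 7 with all arrays kept, the CYP11A1 probe dim in WT among them. Without adjustment that t-test gave 2 NR3C1 probes a p under 0.05.

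In the list of supply and partners 2 genes were called with median scaling and 0 with the t-test after Benjamini-Hochberg or Bonferroni. In the steroid synthesis list 5 were called with quantile normalization, 4 with the deposited values, 1 with probes well above background on all 4 arrays, 0 with the t-test after Benjamini-Hochberg or Bonferroni, and 2 to 8 with each array left out. Of the induced genes, 4 were called with the unadjusted t-test, 2 after Benjamini-Hochberg, 0 after Bonferroni and 6 to 11 with each array left out. Median scaling moved the median of all probes from -0.06 to -0.32 and called 3 of the 6 HSD11B1 probes, at 0.95 to 1.09. The causes were not tested.

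Signs turned at dim probes and at small differences. STAR probe A_72_P722403, at 0.90 in the report, was at -0.068 with normexp and 0.15 to 1.64 with each array left out. Probe A_72_P749046 was at -0.23 with quantile normalization, -0.13 with median scaling, -0.18 with normexp and -0.51 to 0.77 with each array left out. CYP11A1 probe A_72_P043786 was at -0.059 with quantile normalization and -0.14 with normexp. HSP90AA1 was at 0.040 with quantile normalization and with the deposited values. FKBP4 was at -0.23 with median scaling, -0.014 with normexp and -0.16 to 0.21 with each array left out. STARD3 was at 0.031 with quantile normalization, 0.028 with the deposited values and -0.10 to 0.023 with each array left out.

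Samples with the same replicate number did not deviate together (r = -0.29 over probes). With 2 arrays per genotype this cannot show whether the numbers pair the samples. With the replicate block HSD11B1 stayed at 1.35 (limma adjusted p = 0.0418), 5 of its 6 probes were called, and 6 of the 16 probes in all. The brightest NR3C1 probe then had an adjusted p of 0.0778. The crossed pairing is that of the slides, and with the slide as a block 7 were called.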
